A study of Rattus norvegicus with 65 samples.

Results

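The galectins are a family of lectins, and this account follows 5 of their genes, Lgals1, Lgals3, Lgals5, Lgals8 and Lgals9, through 65 rat mammary tumors. The genes were taken as a family, and every probe set annotated to them on the array was read. Of the 5 genes, 4 had a probe set of their own, and Lgals5 shared its probe set with Lgals9. This gave 5 probe sets of a single galectin gene and 1 shared probe set, out of 15866 probe sets that were not controls. All of them lay above the filter on dim probe sets, and 4 galectin genes were tested among 8499 genes.

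The study passed mammary tumors, first induced in rats by a carcinogen, from host to syngeneic host. The transplanted tumors comprised 11 of transplant 1, 11 of transplant 2, 11 of transplant 3, 11 of transplant 4 and 10 of transplant 5, and the comparison tumors were 11 primary tumors. The 11 lines are the transplant series 10, 13, 17, 19, 25L, 25R, 32, 33, 34, 36 and 42, with 1 tumor and 1 array per generation. Series 10 enters with generations up to transplant 4, and its transplant 5 was not used here. The labels name neither the carcinogen nor the strain, sex or age of the hosts, and they give no invasive or metastatic phenotype for any single tumor. All lines began with a carcinogen, so no group is free of it. A line has no repeat at any generation. P-values of the main fits rest on the scatter of tumors that remains after line and generation, or slope, are taken out. These fits treat the tumors of a line as independent. Tests with 1 value per line rest on the spread of that value between lines.

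Galectins bind glycans that end in galactose on secreted and cell surface glycoproteins. They are made in the cytosol, leave the cell without the usual secretory pathway, and cross-link glycoproteins into lattices that set how long receptors stay at the surface and how cells hold to matrix. The Lgals1 protein has a single carbohydrate-binding domain, forms dimers and is made by fibroblasts, endothelium and mesenchymal cells. The Lgals3 protein joins its binding domain to a long flexible tail and is made by epithelia and macrophages. The Lgals8 and Lgals9 proteins carry a pair of binding domains on 1 chain, with Lgals8 known for its binding to damaged vesicles in the cytosol and Lgals9 for its induction by interferon and its effects on T cells. The Lgals5 protein is a galectin of the rat that is known from red blood cells and their precursors. In mammary tumors Lgals1 and Lgals3 are studied in invasion and in the escape from immune cells.

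Positions are those of the rat assembly GRCr8. Lgals1 lies at chr7:112365695-112368801, Lgals3 at chr15:23099795-23111731 and Lgals8 at chr17:62716368-62744272. Lgals5 at chr10:64351976-64355137 and Lgals9 at chr10:64405044-64428249 lie on the same chromosome. Lgals1 was read by probe set 1367628_at, Lgals3 by 1386879_at and Lgals9 by 1387027_a_at. Lgals8 had the probe sets 1368960_at and 1389329_at, and the brighter one, 1368960_at, stood for the gene in the tests. The shared probe set 1369716_s_at is annotated to both Lgals9 and Lgals5, so no level of Lgals5 alone is given.

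The genes that share this probe set are also close in sequence in the windows RefSeq places before a start of transcription, and the stretch ahead of Lgals5 is shown for that reason. The windows hold the 250 bases before the start that the RefSeq table takes for each gene, on the minus strand of GRCr8, at chr10:64355138-64355387 for Lgals5 and chr10:64428071-64428320 for Lgals9. The Lgals5 window lies wholly ahead of the gene. In the Lgals9 window 179 of the 250 bases lie inside the span given above for the gene and 71 ahead of it, and its letters are not shown. RefSeq windows were at hand for 3 of the 5 galectin genes. Capitals mark the runs of at least 15 bases that the aligned Lgals9 window also holds.
Lgals5: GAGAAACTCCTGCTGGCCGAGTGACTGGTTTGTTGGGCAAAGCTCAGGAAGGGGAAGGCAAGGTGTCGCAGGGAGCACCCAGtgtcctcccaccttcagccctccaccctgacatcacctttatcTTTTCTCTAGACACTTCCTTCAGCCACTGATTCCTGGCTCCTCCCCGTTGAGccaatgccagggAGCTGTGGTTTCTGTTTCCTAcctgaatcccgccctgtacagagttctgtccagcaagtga
Of 181 aligned bases, 175 (96.7%) were identical. The 3 shared runs cover 155 bases, and the longest has 82. These windows describe the genes and not the probes, whose sequences were not used here.

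All values below are log2 of the probe set intensity after each array was scaled to a common median, and the lowest value that can occur, the floor, is 5.31. No galectin value was at the floor in any of the 65 tumors. Array medians before scaling ranged from 96.1 to 176, with the lowest on the transplant 5 array of series 32. The log2 ratio of the 3′ to the 5′ Gapdh control, a sign of RNA quality, ranged from -0.063 to 0.286 in transplant 5 tumors, against -0.178 to 0.375 in primary tumors. The tumors were also checked against epithelial markers. The mean of 12 luminal markers was between 9.54 and 10.69 in the primary tumors of 10 series, and 5.69 in the primary tumor of series 42. In series 42 the epithelial adhesion gene Epcam was at 6.00 in the primary tumor and between 5.31 and 5.33 in the 5 transplants, so the tumors of that series carry almost no luminal epithelial signal on these arrays.

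Lgals1 was the galectin that changed most between tumors. It was higher in the last transplants than in the primary tumors, and within lines its level followed that of matrix genes. Its value was 5.89 in the tumor with the lowest level and 13.18 in the highest, with a median of 10.05, a span of 157-fold. Lgals3 spanned 7.14-fold, from 9.93 to 12.77. Lgals9 spanned 8.41-fold, from 6.28 to 9.35. Lgals8 spanned 2.02-fold, from 7.72 to 8.73, and was close to level throughout.

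**Figure D1:**
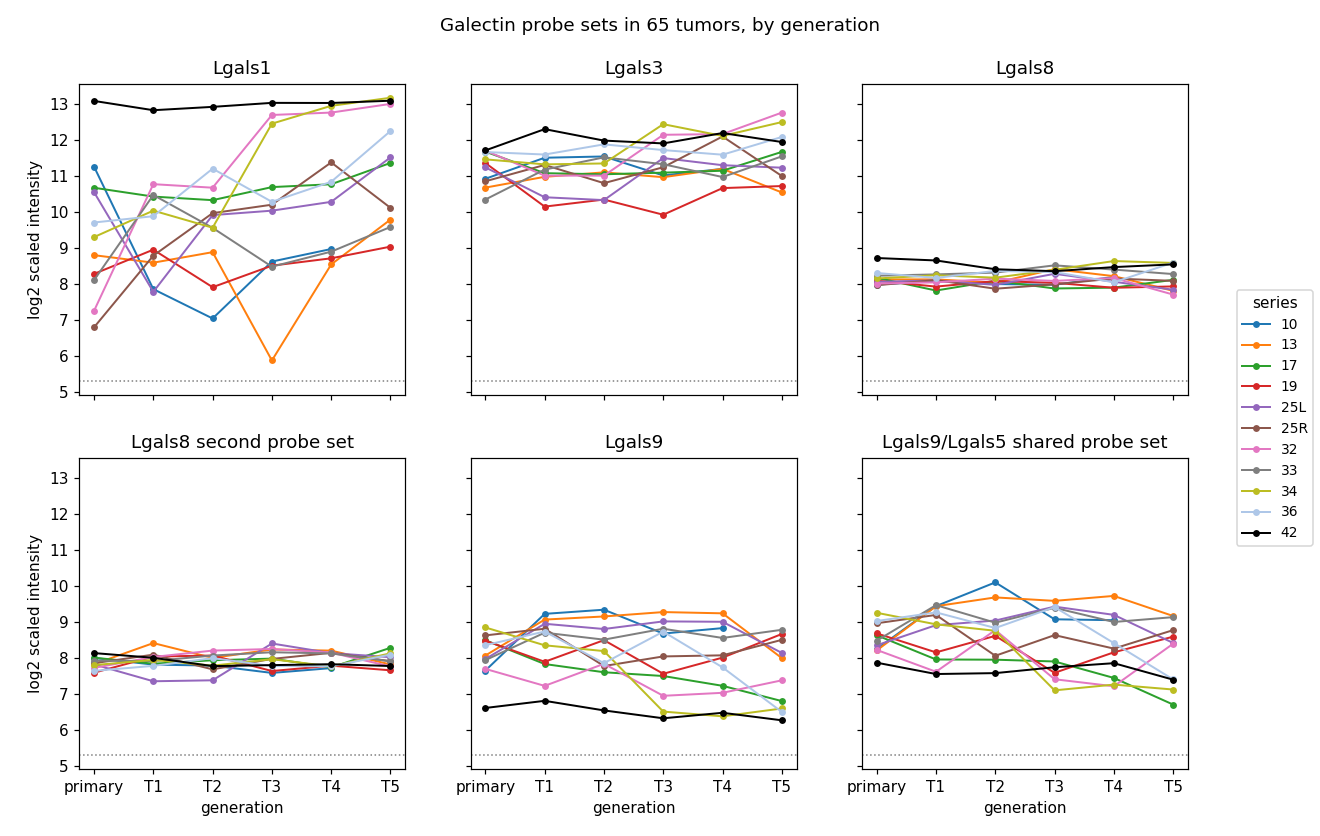
Log2 scaled intensity (y axis) of the 6 galectin probe sets against generation (x axis, primary tumor and transplants T1 to T5), 1 line per transplant series, with the floor of 5.31 dotted. Lgals1 climbs above 12.4 from T3 in series 32 and 34 and lies between 12.84 and 13.10 in series 42, while both Lgals8 probe sets stay within 7.36 and 8.73.

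The last transplants were first compared with the primary tumors of the same lines. Lgals1 had a lowest value of 9.05, a median of 11.45 and a highest value of 13.18 in the 10 transplant 5 tumors. In the 11 primary tumors its lowest value was 6.81, its median 9.31 and its highest 13.09. The groups overlapped, but within each line the transplant 5 tumor had the higher value in 10 of 10 series. Lgals1 rose by 1.74 ± 0.49 (SE) on the log2 scale, which is 3.33-fold (95% confidence interval 0.75 to 2.73 on the log2 scale, limma adjusted p = 0.0150). It was the 1 galectin of 4 called in this comparison, where 14.1% of all tested genes were called, 7.37% upward and 6.72% downward. In an exact sign-flip permutation test over the 10 series, which does not treat tumors of a line as independent, the p was 0.00195, the smallest it can give. This is an unadjusted p, and 28 such tests were run, for 4 galectins in 7 comparisons.

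The size of the Lgals1 difference varied from line to line. It was 5.75 in series 32, 3.87 in series 34, 3.32 in series 25R and 2.54 in series 36. In series 33 it was 1.48, and in series 13, 25L, 19 and 17 it was 0.99, 0.97, 0.76 and 0.69. In series 42, whose primary tumor was already at 13.09, it was 0.01. The call did not hold without series 32 (log2 difference 1.32, limma adjusted p = 0.0648) or without series 34 (1.51, limma adjusted p = 0.0506), and with both left out the difference was 1.03 (limma adjusted p = 0.187). With 1 value per series it was 2.04 ± 0.49 (SE, limma adjusted p = 0.0583), a fit that called 1.56% of all genes.

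The other galectins were not called at transplant 5. Lgals3 had a lowest value of 10.55, a median of 11.62 and a highest value of 12.77 in transplant 5 tumors, against 10.36, 11.37 and 11.72 in primary tumors. Its difference was 0.36 ± 0.18 (SE; 95% confidence interval -0.001 to 0.71, limma adjusted p = 0.168), with the higher value at transplant 5 in 6 of 10 series. The differences of Lgals3 in series 33, 32 and 34 were 1.20, 1.06 and 1.04, and in series 19 it was -0.64. That of series 32 rests on the array with the lowest median before scaling. Lgals9 had a lowest value of 6.28, a median of 7.70 and a highest value of 8.79 in transplant 5 tumors, against 6.62, 8.08 and 8.86 in primary tumors. Its difference was -0.44 ± 0.24 (SE; 95% confidence interval -0.92 to 0.05, limma adjusted p = 0.218), and it was lower at transplant 5 in 7 of 10 series.

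Lgals9 split the lines. Its difference was -2.25 in series 34, -1.86 in series 36 and -1.69 in series 17, and it was 0.84 in series 33. In the other 6 series with a transplant 5 tumor it lay between -0.34 and 0.19. Lgals8 had a median of 8.11 in transplant 5 tumors and 8.14 in primary tumors, and its difference of -0.03 ± 0.07 (SE) had a 95% confidence interval of -0.17 to 0.11 (limma adjusted p = 0.823).

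**Figure D2:**
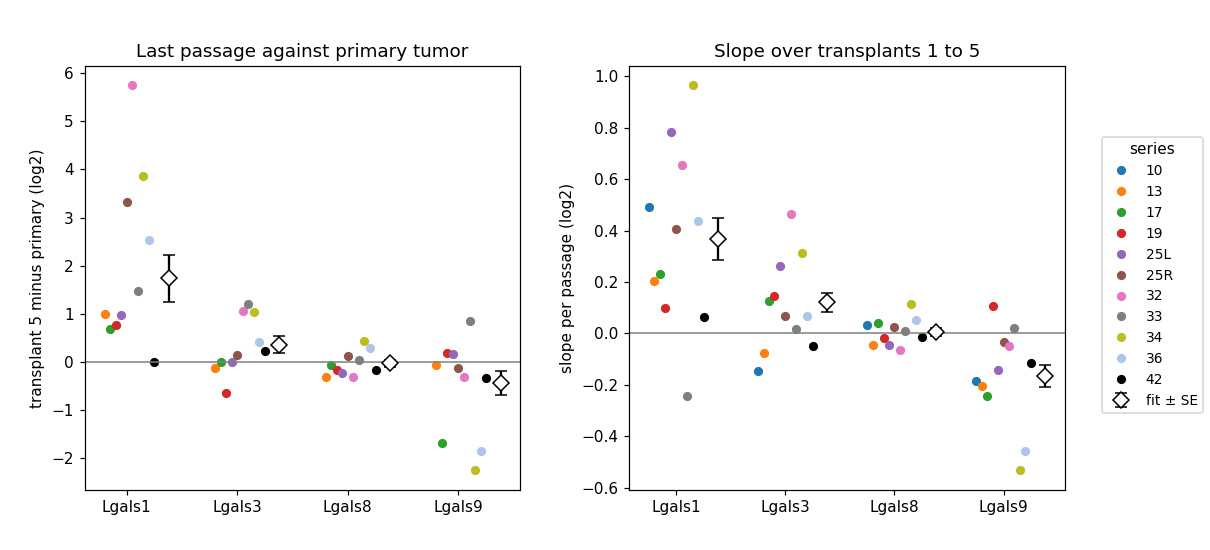
Left, the log2 difference of transplant 5 minus primary (y axis) for the 4 galectin genes (x axis), 1 point per series; right, the log2 slope per passage over transplants 1 to 5. White diamonds with bars are the limma estimate ± SE. All 10 Lgals1 points on the left are above 0, that of series 42 by 0.006, while the 10 Lgals9 points run from -2.25 to 0.84.

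Single earlier transplants were set against the same primary tumors, so these comparisons share those arrays. The Lgals1 mean was 9.45 in primary tumors, 9.68 in transplant 1, 9.83 in transplant 2, 10.09 in transplant 3, 10.66 in transplant 4 and 11.30 in transplant 5 tumors. Relative to primary, the estimates were 0.23, 0.38, 0.64 and 1.21 for transplants 1 to 4, each with an SE of 0.48. No galectin was called at transplant 1, 2, 3 or 4, where limma called 0%, 1.68%, 3.04% and 6.28% of all genes. At transplant 1 limma called 0 of 8499 genes, and 584 had an unadjusted p under 0.05.

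Taking all transplants together, Lgals1 differed from the primary tumors by 0.84 ± 0.37 (SE, limma adjusted p = 0.139), and 0 of 4 galectins were called against 9.50% of all genes. Lgals3 (0.13), Lgals9 (-0.07) and Lgals8 (-0.004) had limma adjusted p values of 0.590, 0.846 and 0.974. Lgals1 averaged lower in the transplants than in the primary tumor in 4 of 11 series, most of all in series 10 (-3.14). In series 10, transplants 1 to 4 were at 7.87, 7.05, 8.63 and 8.98, against 11.27 in the primary tumor. Without series 10 the Lgals1 difference was 1.20 (limma adjusted p = 0.0291), and that at transplant 4 was 1.56 (limma adjusted p = 0.0344), so both were called there.

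Change over successive passages was measured as a slope over the 54 transplanted tumors. Per passage, Lgals1 rose by 0.37 ± 0.08 (SE, 1.29-fold, limma adjusted p = 0.0108) and Lgals3 rose by 0.12 ± 0.04 (1.09-fold, limma adjusted p = 0.0362). Lgals9 fell by 0.17 ± 0.04 per passage on the log2 scale (limma adjusted p = 0.0224). Lgals8 had a slope of 0.01 ± 0.02 (limma adjusted p = 0.852). Thus 3 of 4 galectins were called, 2 upward and 1 downward, where 6.59% of all genes were called, 2.74% upward and 3.85% downward.

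Lines agreed in the direction of these slopes in most cases. For Lgals1 the slope was positive in 10 of 11 series, with 0.97 in series 34, 0.78 in series 25L and 0.65 in series 32, and was -0.24 in series 33. For Lgals9 it was negative in 9 of 11 series, with -0.53 in series 34, -0.46 in series 36 and -0.24 in series 17. For Lgals3 it was positive in 8 of 11 series, with 0.47 in series 32, 0.31 in series 34 and 0.26 in series 25L. Exact sign-flip permutation tests over the 11 series gave unadjusted p values of 0.00684 for Lgals1, 0.0107 for Lgals9 and 0.0713 for Lgals3.

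The slopes kept their sign when each line was left out in turn, but some calls did not hold. Across the 11 such fits the Lgals1 slope was between 0.30 and 0.43 and lost its call in 2, without series 32 (0.34, limma adjusted p = 0.0525) and without series 34 (0.30, 0.0836). The Lgals9 slope was between -0.19 and -0.13 and lost its call in 3, without series 32 (-0.18, limma adjusted p = 0.0572), series 34 (-0.13, 0.138) and series 36 (-0.14, 0.0771). The Lgals3 slope was between 0.08 and 0.14 and lost its call in 6, without series 17, 19, 25L, 32, 34 or 36 (limma adjusted p of 0.0618, 0.0553, 0.0557, 0.204, 0.170 and 0.0758).

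The calls also depended on the fit. With 1 value per series, limma called 0 of 8499 genes (906 had an unadjusted p under 0.05), with adjusted p values of 0.447 for Lgals1, 0.458 for Lgals3 and 0.447 for Lgals9. With series as a random block, the slopes of Lgals3 and Lgals9 were not called (limma adjusted p of 0.0605 and 0.0564), and with no rescaling of the arrays that of Lgals3 was not (0.10, limma adjusted p = 0.0510). Array weights ended all 3 calls, with limma adjusted p values of 0.135 for Lgals1, 0.463 for Lgals3 and 0.177 for Lgals9.

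Lines 32 and 34 had the largest Lgals1 differences at transplant 5, and in both a step lay between transplants 2 and 3. In series 32 another lay between the primary tumor and transplant 1. In series 32, Lgals1 was at 7.26 in the primary tumor, 10.78 in transplant 1, 10.68 in transplant 2, 12.70 in transplant 3, 12.77 in transplant 4 and 13.01 in transplant 5. In series 34 the same generations were at 9.31, 10.05, 9.57, 12.46, 12.96 and 13.18. Transplants 3 to 5 of both lines thus lay between 12.46 and 13.18, near the 12.84 to 13.10 of series 42 over all 6 generations.

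Lgals3 was also higher from transplant 3 on in these lines. In series 32 it was at 11.72 in the primary tumor and at 11.02, 11.02, 12.15, 12.17 and 12.77 in transplants 1 to 5. In series 34 it was at 11.47 in the primary tumor and at 11.33, 11.36, 12.45, 12.12 and 12.51 in transplants 1 to 5. Lgals9 in series 34 ran the other way, at 8.86 in the primary tumor and at 8.36, 8.20, 6.52, 6.39 and 6.61 in transplants 1 to 5. In series 32 Lgals9 moved less, between 6.96 and 7.85. The transplant 5 array of series 32 had the lowest median, so its values were scaled up the most. Before scaling, Lgals3 read 4134 there, against 4456 in transplant 4 and 3409.5 in the primary tumor. Lgals9 before scaling read 99.1 there, against 211.6 in the primary tumor.

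Not every line with a low Lgals9 showed such a step. Series 17 had Lgals9 at 8.50 in the primary tumor and at 7.84, 7.61, 7.51, 7.23 and 6.81 in transplants 1 to 5, lower at each generation, while its Lgals1 stayed between 10.34 and 11.37. Series 36 held Lgals9 between 7.75 and 8.74 up to transplant 4 and then had 6.51 at transplant 5, where its Lgals1 was at 12.26, the highest of that line. Series 13 and 25L had higher Lgals9 in transplants 1 to 4 (8.81 to 9.28) than in their primary tumors (8.08 and 7.98) and had 8.005 and 8.15 at transplant 5.

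Whether the lines differ in slope was tested as such. Lgals3 slopes differed among series (limma F = 3.23, adjusted p = 0.0285), and this was the 1 galectin of 4 called, where 24.3% of all genes were called. Lgals9 (limma adjusted p = 0.0850), Lgals1 (0.101) and Lgals8 (0.540) did not pass. The Lgals3 slope ran from -0.15 in series 10 to 0.47 in series 32, and the call did not hold without series 32 (limma adjusted p = 0.173) or without its transplant 5 tumor alone (0.0826). Over the 6 generations taken as a factor, 0 of 4 galectins passed by limma (4 adjusted p values from 0.0976 to 0.938), where 4.79% of all genes were called. Of the 4 galectins, 1 had an unadjusted p under 0.05, namely Lgals1 at 0.00787.

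The lines differed in galectin level more than the generations did. All 4 galectins differed among series (limma adjusted p of 1.1e-07 for Lgals1, 7.5e-07 for Lgals3, 8.8e-07 for Lgals8 and 3.8e-08 for Lgals9), but 83.5% of all genes did so. Of the variance of Lgals1, 56.8% lay between series, 10.9% between generations and 32.3% in the remainder. For the median gene these shares were 43.0%, 6.06% and 49.3%. The series shares of Lgals8, Lgals9 and Lgals3 were 62.3%, 61.5% and 55.8%, and their generation shares were 1.62%, 6.46% and 7.58%.

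In order of its mean, Lgals1 was at 13.01 ± 0.10 (SD, n = 6 tumors) in series 42, followed by 11.26 ± 1.80 in series 34, 11.20 ± 2.19 in series 32, 10.72 ± 0.36 in series 17 and 10.70 ± 0.95 in series 36. Then came series 25L at 10.02 ± 1.23, series 25R at 9.55 ± 1.58 and series 33 at 9.19 ± 0.86. Series 10 (8.76 ± 1.59, n = 5), series 19 (8.58 ± 0.43) and series 13 (8.42 ± 1.32) were lowest. The range of each line overlapped with that of its neighbour in this order, and differences between pairs of lines were not tested.

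For Lgals9 the order was nearly turned round. Series 13 (8.81 ± 0.60) and series 10 (8.75 ± 0.67) were highest, and series 34 (7.49 ± 1.10), series 32 (7.36 ± 0.36) and series 42 (6.51 ± 0.20) were lowest (SD, n = 6 tumors, and 5 for series 10). The ranges of neighbours overlapped down to series 32, and the 6 tumors of series 42, from 6.28 to 6.82, lay below the lowest tumor of series 32 at 6.96. Transplants 3 to 5 of series 34 (6.39 to 6.61) and the transplant 5 tumors of series 36 (6.51) and 17 (6.81) nonetheless lay within the range of series 42. The other 5 lines, in falling order 25L, 33, 25R, 19 and 36, averaged between 7.99 and 8.66, and series 17 averaged 7.58.

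Lgals3 was highest in the same 3 lines as Lgals1, with means of 12.02 ± 0.21 in series 42, 11.87 ± 0.55 in series 34 and 11.81 ± 0.70 in series 32, followed by 11.77 ± 0.19 in series 36. The next 6 lines, in falling order 17, 10, 25R, 33, 25L and 13, averaged between 10.92 and 11.29, and series 19 was lowest at 10.54 ± 0.51. Lgals8 averaged 8.54 ± 0.14 in series 42, 8.37 ± 0.21 in series 34, 8.34 ± 0.11 in series 33 and 8.31 ± 0.19 in series 36. The other 7 lines averaged between 8.003 and 8.131. For both genes the ranges of all neighbouring lines overlapped (SD, n = 6 tumors, and 5 for series 10).

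**Figure D3:**
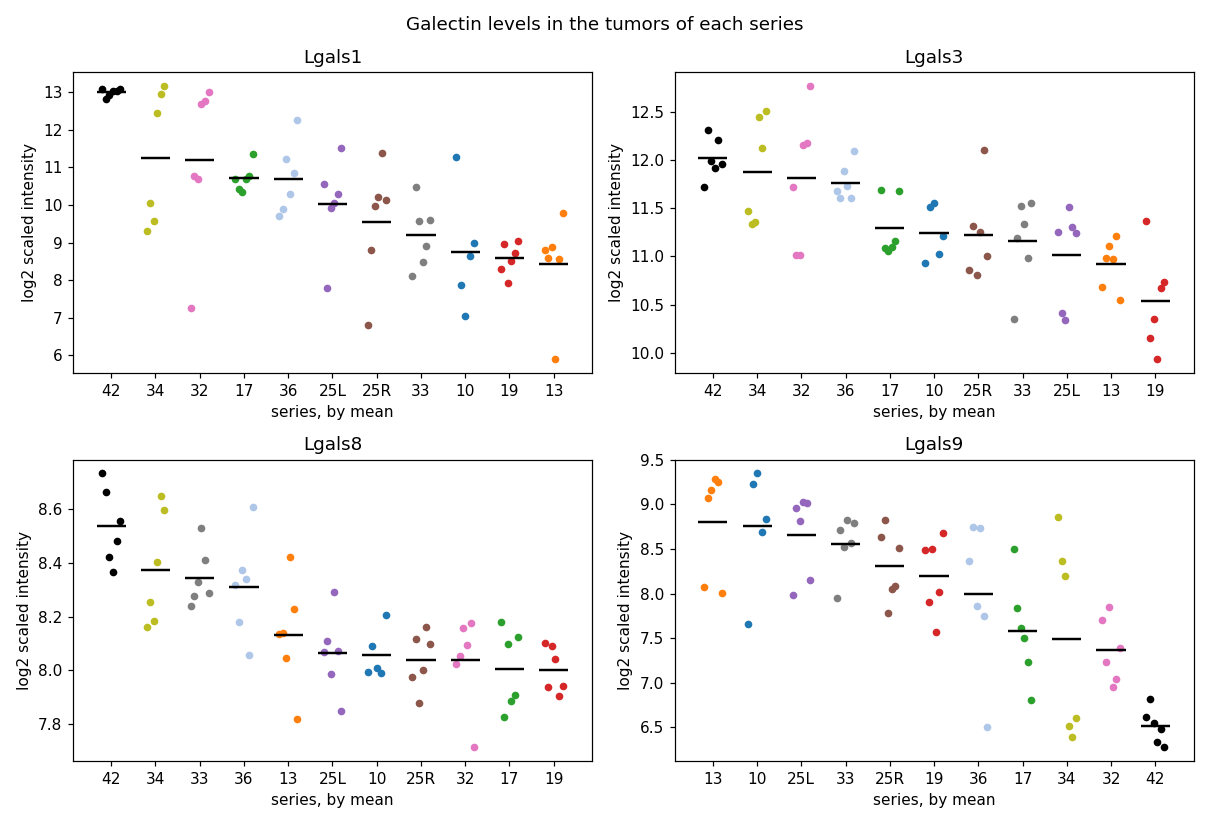
Log2 scaled intensity (y axis, a separate scale for each gene) of the 4 galectin genes in each series (x axis, ordered by mean), 1 point per tumor, running from the primary tumor on the left to the last transplant on the right, with a bar at the series mean. Series 42 is highest for Lgals1 (13.01) and lowest for Lgals9 (6.51).

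The probe sets of a gene were set against each other. The Lgals8 probe sets 1368960_at and 1389329_at followed each other only in part, with a Pearson correlation of 0.49 over the 65 tumors after the mean of each series was removed. Neither was called at transplant 5 (differences of -0.03 and 0.07) or in slope (0.007 and 0.004). They disagreed on the lines: with every probe set tested on its own, 1368960_at differed among series (limma F = 7.64, adjusted p = 9.2e-07) and 1389329_at did not pass (F = 1.12, adjusted p = 0.377).

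The shared probe set of Lgals9 and Lgals5 ran with that of Lgals9 alone, at a correlation of 0.93. It fell by 0.15 ± 0.05 per passage on the log2 scale (limma adjusted p = 0.0427 with every probe set tested), against -0.17 ± 0.04 for the Lgals9 probe set. At transplant 5 its difference was -0.37 ± 0.24 (SE, limma adjusted p = 0.319). The 2 probe sets parted in series 13, where the shared one differed by 0.96 and that of Lgals9 by -0.07, and in series 32, where the differences were 0.17 and -0.32. Of the markers of red cells, the source from which Lgals5 is known, 0 of 3 tested were called at transplant 5 or in slope. Of all genes, 14.1% and 6.59% were called there. The mean level of the 3 red cell markers was between 8.26 and 9.93 in transplant 5 tumors, against 8.45 and 9.61 in primary tumors. Only Alas2, Hbb and Slc4a1 of the 14 red cell genes listed were measured above the filter.

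Galectins were next compared with each other across tumors. The correlations that follow are over 65 tumors after the mean of each series was removed, and are given as descriptions, since tumors of a line descend from each other and values of a tumor come from 1 array. Lgals1 and Lgals9 ran in opposite directions (Pearson r = -0.64, Spearman rho = -0.68), and with no means removed r was -0.80. Lgals1 and Lgals3 ran together less closely (r = 0.43). Lgals3 and Lgals9 were nearly unrelated within lines (r = -0.11), as were Lgals1 and Lgals8 (r = 0.04).

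**Figure D4:**
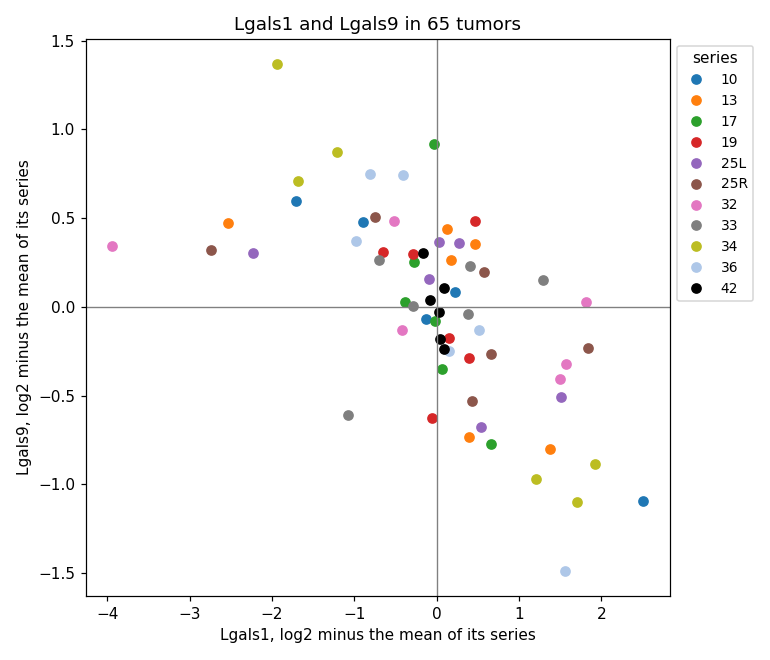
Lgals9 (y axis) against Lgals1 (x axis), each as log2 minus the mean of its series, 1 point per tumor (65 tumors), coloured by series. Points run from upper left to lower right (r = -0.64), with the primary tumor of series 32 at the far left and that of series 10 at the far right.

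The 5 genes most like Lgals1 by this measure were Oaf (r = 0.92), the collagen chain genes Col1a2 (0.90) and Col5a1 (0.90), the fibronectin gene Fn1 (0.90) and S100a4 (0.90), which encodes a calcium-binding protein of motile cells. Among them S100a4, Fn1 and Oaf rose at transplant 5, by 2.41, 1.50 and 0.88 (limma adjusted p of 0.00195, 0.0251 and 0.0223). All 5 rose in slope, by 0.23 to 0.42 per passage. Of all genes, 7.37% rose at transplant 5 and 2.74% in slope. These 5 were picked for their likeness to Lgals1 over the same tumors, so a shared rise was largely built in. It is no separate evidence on Lgals1.

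The genes most like Lgals3 were Clic1 (r = 0.73), an intracellular chloride channel protein gene, Anxa2 (0.73), a membrane-binding annexin gene, Ctsl (0.71), a lysosomal protease gene, Rhoc (0.71), a small GTPase gene, and Cd44 (0.70), the hyaluronan receptor gene. Those most like Lgals9 were Atp2c2 (r = 0.84), a calcium pump gene of the secretory pathway, Nherf1 (0.82), a scaffold gene of apical membranes, Oas1a (0.82) and Eif2ak2 (0.81), which act against viruses and are induced by interferon, and Qsox1 (0.82), a disulfide-forming enzyme gene. Atp2c2, Qsox1 and Oas1a fell in slope, by 0.26, 0.25 and 0.20 per passage (limma adjusted p of 0.0104, 0.0256 and 0.0261). For Lgals8 the closest genes were Dennd10 (r = 0.62), Gbf1 (0.62), Nptxr (0.61), Gnaq (0.61) and Pex3 (0.59), none of which was called at transplant 5 or in slope.

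These are whole tumors, in which fewer cells of a type and less RNA per cell cannot be told apart, so lists of cell type markers were read beside the galectins. Within lines, Lgals1 followed the means of 12 fibroblast matrix genes (r = 0.89), 11 macrophage genes (r = 0.66) and 6 endothelial genes (r = 0.53). It ran against 12 luminal epithelial genes (r = -0.68) and 6 basal myoepithelial genes (r = -0.58). Lgals9 had the opposite signs, with 0.65 for luminal genes, 0.63 for basal genes, -0.51 for fibroblast matrix genes and -0.34 for macrophage genes. Lgals3 ran against luminal genes (r = -0.51) and basal genes (r = -0.36). It stood at 0.39 for macrophage genes, 0.38 for endothelial genes and 0.28 for fibroblast matrix genes. For Lgals8 the value farthest from 0 was -0.41, with 4 genes of T and NK cells. The T and NK mean was highest, at 9.59, in the transplant 5 tumor of series 32, where Lgals8 was lowest (7.72). That tumor's array had the lowest median before scaling, and the correlation without it was not computed.

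**Figure D5:**
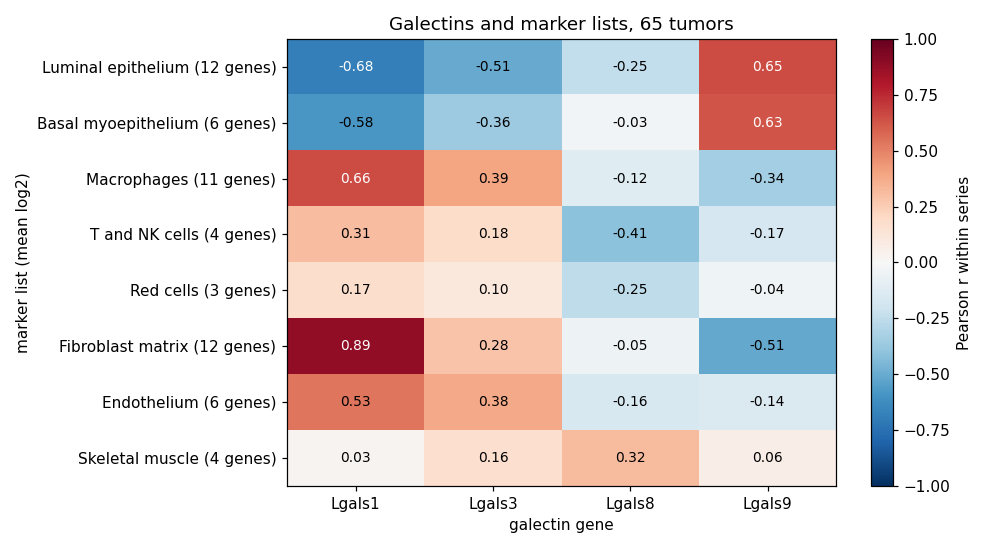
Pearson correlation within series, over 65 tumors, between each of 4 galectin genes (x axis) and the mean log2 level of each marker list with at least 3 tested genes (y axis), coloured from -1 (blue) to 1 (red). Lgals1 is at 0.89 with fibroblast matrix genes and at -0.68 with luminal genes, and Lgals9 at -0.51 and 0.65.

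Luminal epithelial genes were lower in the late transplants. Of 12 genes 7 fell at transplant 5, where 6.72% of all genes fell, among them the tight junction genes Cldn3 (-2.38) and Cldn7 (-1.36), Epcam (-1.56) and the keratin gene Krt19 (-1.64), and 10 of 12 fell in slope, where 3.85% of all genes fell. The median of the list at transplant 5 was -1.31, against 0.02 over all tested genes. The mean luminal level was between 5.65 and 10.13 in transplant 5 tumors, against 5.69 and 10.69 in primary tumors. The lines with the largest Lgals1 differences were low here, with 5.92 in transplant 5 and 10.69 in the primary tumor of series 32, and 5.65 and 10.52 in series 34. In series 34 Epcam was at 12.01 in the primary tumor and at 11.74, 11.62, 6.52, 5.83 and 5.31 in transplants 1 to 5, so its step fell between the same transplants as that of Lgals1.

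Fibroblast matrix genes had 0 of 12 called at transplant 5 (median 0.77), where 14.1% of all genes were called. In slope, where 2.74% of all genes rose, 3 of 12 rose, namely Col5a1 (0.30), Thy1 (0.28) and Col1a2 (0.28). The mean level of the 12 genes was between 8.04 and 11.99 in transplant 5 tumors, against 7.21 and 11.09 in primary tumors. In series 34, where Lgals1 differed by 3.87, the mean of these genes was 9.80 at transplant 5 and 8.96 in the primary tumor. Series 42, highest in Lgals1, had a mean of 8.77 ± 0.47 (SD, n = 6 tumors), below that of 6 other series. In series 32 the mean was 11.99 at transplant 5 and 7.21 in the primary tumor. In series 10, whose primary tumor was high in Lgals1, the matrix mean of that tumor was 11.09, and the line's lowest was 6.61.

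At transplant 5, 7.37% of all genes rose and 6.72% fell, and in slope 3.85% fell. Macrophage genes had 1 of 11 upward (Laptm5, 0.84) and 1 downward (Cd14, -0.90) at transplant 5, near those shares. The macrophage mean level there was between 9.11 and 10.48, against 8.81 and 10.00 in primary tumors. Basal myoepithelial genes had 1 of 6 lower at transplant 5 (Mylk, -1.49) and 4 of 6 lower in slope. Endothelial genes had 0 of 6 called in either, where 14.1% and 6.59% of all genes were called. The part of these cell types in the galectin differences was not tested.

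Other genes of the family were read from a list. Of 7 genes 4 were tested, and none was called at transplant 5, where 14.1% of all genes were called. Lgals7, a galectin of stratified epithelia that also marks myoepithelium, fell in slope by 0.42 ± 0.13 per passage on the log2 scale (limma adjusted p = 0.0396) and differed by -1.51 ± 0.58 (SE) at transplant 5 (limma adjusted p = 0.0659). In series 34 Lgals7 was at 10.38 in the primary tumor, at 10.32 and 9.10 in transplants 1 and 2, and at the floor in transplants 3 to 5. In series 32 it was at 10.49, 11.30 and 8.65 and then likewise at the floor, and in series 42 it was at the floor in 5 of 6 tumors. Lgals2, Lgalsl and Lgals3bp, which encodes a secreted ligand of galectins, were not called in any of these comparisons. Lgals4 and Grifin lay below the filter.

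Enzymes that shape galectin ligands were read next. Of 12 tested genes for N-glycan branching and lactosamine chains, 1 was called at transplant 5 and 1 over all transplants, where 14.1% and 9.50% of all genes were called, so these counts are near the background. Man2a1, a Golgi mannosidase gene, fell over all transplants (-0.50 ± 0.14 SE, limma adjusted p = 0.0165), and Mgat4a, a branching enzyme gene, fell at transplant 5 (-0.33 ± 0.11, limma adjusted p = 0.0381). The median of the list at transplant 5 was 0.07, against 0.02 for all genes.

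Of 9 tested genes that cap glycan ends with sialic acid or fucose, 2 rose and 2 fell at transplant 5, where 7.37% of all genes rose and 6.72% fell, and the list's median was 0.15, against 0.02 for all genes. St6gal1, whose sialic acid linkage is known to block the binding of the Lgals1 protein, fell by 0.78 ± 0.21 on the log2 scale (limma adjusted p = 0.0104), and the fucosyltransferase gene Fut4 fell by 0.69 ± 0.15 (limma adjusted p = 0.00241). St3gal1, which caps O-glycans, rose by 0.96 ± 0.26 (limma adjusted p = 0.0106), and St3gal5, which makes a ganglioside, rose by 0.77 ± 0.27 (limma adjusted p = 0.0471). St6gal1, Fut4 and St3gal1 changed the same way over all transplants, where St3gal4 also rose (0.39 ± 0.13, limma adjusted p = 0.0379).

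Of 25 tested genes for glycoproteins known to bind galectins, 4 rose and 3 fell at transplant 5, where 14.1% of all genes were called in either direction. Cd44 rose by 1.52 ± 0.23 (limma adjusted p = 6.7e-05), Fn1 by 1.50 ± 0.47 (0.0251), Spn, the leukocyte sialophorin gene, by 1.33 ± 0.21 (8.7e-05) and the integrin chain gene Itgb1 by 0.56 ± 0.14 (0.00569). Muc1, a mucin of luminal epithelium, fell by 1.14 ± 0.29 on the log2 scale (limma adjusted p = 0.00650), the growth factor receptor gene Egfr by 0.71 ± 0.21 (0.0182) and the adhesion gene Mcam by 0.69 ± 0.24 (0.0444). The integrin chain gene Itga3 fell over all transplants (-0.34 ± 0.10, limma adjusted p = 0.0255). The list's median at transplant 5 was 0.06, against 0.02 for all genes. Muc1 and Thy1 of this list are also in the luminal and fibroblast lists, and Kdr in the endothelial list.

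Of 5 tested genes of the cytosolic response to glycans exposed on damaged vesicles, in which the Lgals8 protein acts, Gabarap, an autophagy gene, rose at transplant 5 (0.26 ± 0.09 SE, limma adjusted p = 0.0347), and the other 4 were not called. At transplant 5, 14.1% of all genes were called in either direction and 7.37% rose. A lone call on so short a list is therefore near the background. The list's median was 0.13, against 0.02 for all genes.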

How the data were processed

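The arrays were Affymetrix arrays, 65 in all. Per the labels, RNA came from frozen tumor by spin column, and 6 µg of it gave the biotin-labelled cRNA of an array. The deposited values are linear probe set intensities from 1 to 12011, and every array has 1 as its lowest value. The authors' probe summary and normalization are not described in the labels or the file headers. No 2 arrays held identical values.

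Series and generation were read from the array titles. Without the 57 control probe sets, arrays were brought to 1 median (162.4), intensities below 39.8, the 10th percentile over all arrays, were raised to that floor, and values were then taken as log2. The dimmest 25% of probe sets (mean log2 under 6.35) stayed out of the tests. In the platform annotation 12783 probe sets had 1 gene symbol, 312 several and 2771 none, and 12748 matched current gene names (GRCr8). The brightest probe set stood for a gene, which gave 10411 genes, of which 8499 were tested. The number of arrays limits the precision.

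Tests used limma 3.58.1 in R 4.3.3 (lmFit, eBayes) with generation and series as factors, two-sided, with Benjamini-Hochberg adjustment over 8499 genes and a threshold of 0.05, here termed called. The contrasts were all transplants, and each transplant, minus primary, and the slope over transplants 1 to 5. F tests compared generations, series and slopes among series. Exact sign-flip permutation tests used 1 difference or slope per series. The limma fits and the sign-flip test were also run on simulated data with independent noise on each array. Likeness between successive tumors of a line was therefore not checked there.

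Series is the block because the series' design text describes lines that descend from a first tumor. Arrays were correlated after the mean of each generation was taken out of every gene. The nearest array by this correlation was of the same series for 50 of 65 arrays (76.9%). Its mean was 0.38 within and -0.04 between series, and every pair exceeded 0.1 in 3 of 11 series. Without that step the values would differ. Whether series 25L and 25R share an animal is not stated in the labels, and they count as separate lines.

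Neighbours of a galectin were the 5 tested genes with the highest Pearson correlation over 65 arrays after series means were removed. In the gene lists, genes called at transplant 5 or over all transplants are named. The galectins, lists, tests and this rule were chosen with earlier results of these data known. Alternatives were the block, scaling, floor, filter, probe sets, array weights, RNA quality as a covariate and leaving out each series. Leaving out series 32 and 34 together, or the transplant 5 array of series 32, was chosen after seeing the data.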

Additional observations from a re-analysis of the deposited data

Results flagged for a closer look

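For each of the 6 galectin probe sets, the tumors of each series and the 10 transplant 5 tumors were searched for a tumor far from the others. Of 72 such groups 4 held one, and chance gives one in about 1 group in 20. Lgals1 was at 5.89 in the transplant 3 tumor of series 13, where the nearest tumor of that line was at 8.55. Lgals8 was at 7.72 in the transplant 5 tumor of series 32, the array with the lowest median before scaling, where the nearest was at 8.02. Lgals9 was at 7.95 in the primary tumor of series 33, where the nearest was at 8.52. The shared Lgals9 and Lgals5 probe set was at 8.22 in the primary tumor of series 13, where the nearest was at 9.17. The slope of Lgals3 over transplants 1 to 5 differed among series (limma adjusted p = 0.0285).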

How the results depend on the processing

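No galectin difference or slope that was called changed direction under any alternative run. The slope of Lgals8, not called, was 0.01 and with no rescaling -0.01. Of 1024 galectin results recomputed, 943 kept their side of the threshold and, for differences and slopes, their sign. Of the rest, 38 lost their call, 6 gained one, and 37 that were not called changed sign.

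The galectin calls at transplant 5 and in slope held neither without the series block nor with 1 value per series. With no replicate block, the galectins called at transplant 5 numbered 0 against 1, and in slope 0 against 3. Without the block Lgals1 differed at transplant 5 by 1.85 (limma adjusted p = 0.193), and its slope was 0.40 (limma adjusted p = 0.437). Over all genes the unpaired fit called 85 against 807 for all transplants, 0 against 143, 15 against 258, 21 against 534 and 37 against 1197 for transplants 2, 3, 4 and 5, 0 against 560 in slope and 8 against 407 among generations. With 1 value per series 135, 8, 0, 89, 133 and 0 genes were called for the same contrasts up to the slope (719 had an unadjusted p under 0.05 at transplant 1, where both counts were 0), and 0 galectins at transplant 5 and in slope. With series as a random block 286 genes and 1 galectin, Lgals1, were called in slope.

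Leaving out each series in turn gave 0 to 1 galectins called for all transplants, 0 to 1 at transplant 4, 0 to 1 at transplant 5, 0 to 3 in slope, 0 to 1 among generations and 0 to 2 for slopes among series. The gene counts ran from 488 to 824 for all transplants, 0 to 1, 41 to 285, 145 to 288, 246 to 671 and 764 to 1269 for transplants 1 to 5, 14 to 997 in slope, 195 to 569 among generations and 845 to 2300 for slopes among series. Without series 32 and 34 together 5, 302, 146, 256 and 610 genes were called for transplants 1 to 5, 0 in slope, 154 among generations and 452 for slopes among series, with 0 galectins at transplant 5, in slope and for slopes among series. Without the transplant 5 array of series 32, 332 genes were called in slope and 0 galectins for slopes among series. The Lgals3 slope was not called without that array (0.10, limma adjusted p = 0.0790). Without series 10, Lgals1 was called among generations (limma adjusted p = 0.0379), and without series 13 its slope differed among series (limma adjusted p = 0.0173).

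Array weights gave 331 genes for all transplants, 343 at transplant 4, 307 at transplant 5, 0 in slope and 5596 for slopes among series, with 0 galectins in slope and 3 for slopes among series. The Gapdh ratio as a covariate gave 407, 24 and 230 genes for all transplants and transplants 2 and 4. Quantile normalization gave 242 genes at transplant 2 and no rescaling gave 93, and both gave 0 galectins for slopes among series. With no filter 1 gene was called at transplant 1. Averaging series 25L and 25R gave 1294 genes for slopes among series. With no rescaling the median of all genes at transplant 5 was -0.09 against 0.02, and 16.7% of calls were upward against 52.3%, and in slope 15.2% against 41.6%. The Lgals1 rise at transplant 5 and its slope were called there too, and the slope of Lgals3 was not (limma adjusted p = 0.0510).

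The neighbours depend on how likeness is measured: with no means removed 2 of 5 were kept for Lgals1, 2 for Lgals3, 0 for Lgals8 and 1 for Lgals9, and with Spearman correlation 2, 4, 2 and 4. The arrays carry no counts, and the number of tumors per line limits what can be told of any single line.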
